A study of Mus musculus with 9 samples.

Results

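The cells described are the immune cells of the mouse testis with the most MHC class II transcripts. They are the 728 barcodes, out of 45132 that passed a filter on detected genes (over 1000) and mitochondrial UMIs (under 10%), with a UMI in at least 3 of the 4 class II genes H2-Aa, H2-Ab1, H2-Eb1 and Cd74, with at least 0.2% of their UMIs from these 4 genes, and with a UMI in at least 1 of the immune cell genes Ptprc, Cd52, Cd14 and C1qb. A UMI is a tag that counts 1 captured transcript molecule. The 728 cells, 1.61% of the barcodes that passed, are called MHC class II high cells here. The cells were thus chosen by the measured values of these 8 genes, and the levels of these genes describe the choice and were not tested.

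The cells came from whole testes of 9 male C57BL/6 mice at PND24, profiled by droplet single cell RNA-seq with 1 library per mouse. The groups were 4 control mice, 2 mice with the NELF-B cKO and 3 with the TDP-43 cKO. The NELF-B cKO mice carried 1 floxed and 1 null allele of Nelfb, the TDP-43 cKO mice carried 1 floxed and 1 null allele of Tardbp, and both carried Stra8-iCre, a recombinase that acts in SG, the spermatogonia. The floxed allele is therefore deleted in germ cells and not in immune cells, whereas the null allele is present in all cells of a cKO mouse. The study's methods place all mice on a C57BL/6 J background and list the control mice as littermates and non-littermates, and its text calls them wild type. The labels do not say which control mice were littermates, and the same 4 control mice entered both comparisons.

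MHC class II molecules hold peptides from engulfed proteins at the surface of antigen-presenting cells, where CD4+ T cells read them. H2-Aa and H2-Ab1 encode the chains of the I-A molecule and H2-Eb1 the beta chain of I-E. Cd74 encodes the invariant chain that blocks the peptide groove until H2-DM, encoded by H2-DMa and H2-DMb1, helps to load the peptide, and Ciita encodes the coactivator that switches these genes on. The mouse testis is known for a large population of interstitial macrophages with little class II, which lie beside Leydig cells, and for macrophages rich in class II at the wall of the tubules. The libraries carry no record of position, so no cell was assigned to either place.

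The promoters of class II genes share an X box and a Y box a fixed distance apart, through which CIITA acts. The following sequences are printed to show this layout in H2-Aa and H2-Eb1, which helped to choose the cells. Beside these sequences stands that of the loading gene H2-DMb1, in which the exact letters searched for the Y box were found but not those for the X box. Each is the 120 bases before a RefSeq transcription start on GRCm38.p6, written 5′ to 3′ on the strand of the gene, with the letters GCAAC, from the core of the X box, and ATTGG, from the core of the Y box, in capitals. The H2-Aa promoter lies at chr17:34287824-34287943 on the minus strand, that of H2-Eb1 at chr17:34305747-34305866 on the plus strand and that of H2-DMb1 at chr17:34153071-34153190 on the plus strand.
H2-Aa: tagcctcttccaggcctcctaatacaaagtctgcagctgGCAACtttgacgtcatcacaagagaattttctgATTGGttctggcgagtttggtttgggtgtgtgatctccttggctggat
H2-Eb1: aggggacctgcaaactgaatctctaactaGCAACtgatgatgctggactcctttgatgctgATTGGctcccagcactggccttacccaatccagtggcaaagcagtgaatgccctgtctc
H2-DMb1: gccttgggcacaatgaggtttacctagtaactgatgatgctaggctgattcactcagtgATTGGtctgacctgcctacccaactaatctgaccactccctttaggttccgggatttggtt
GCAAC begins 81 bases before the start of H2-Aa and ATTGG 48 bases before it, a distance of 33 bases. The same pair begins 91 and 59 bases before the start of H2-Eb1, a distance of 32 bases. The H2-DMb1 window held ATTGG from 61 bases before the start and no exact GCAAC. It held gtaac, which differs from GCAAC in a single letter, before its ATTGG. Only exact letters were searched, so the lack of GCAAC does not show that the X box is absent there. The capitals mark matches on the strand of the gene, and the only match on the other strand in these 3 windows, ATTGG read there as ccaat in H2-Eb1, is left in lower case. The letter strings do not overlap each other. Among 32851 windows of 250 bases before the starts of 27025 genes, 29.9% held GCAAC, 33.8% held ATTGG and 57, or 0.174%, held GCAAC followed by ATTGG at a distance of 30 to 33 bases, each counted on both strands. Of the 12 genes of the class II list, 8 had a window in the table and 5 of these held the pair, a range of distances that was set after these promoters had been read.

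The class II share had no gap at the threshold. The 4 class II genes made up a median of 1.78% of the UMIs of an MHC class II high cell, with the middle 80% of the cells between 0.397% and 4.56% and the highest at 9.73%. The cell closest to the threshold from above had 0.2002% and the closest from below 0.190%. Between 0.2% and 0.4% there were 74 cells, and 44 barcodes that met the other criteria had between 0.1% and 0.2%. Only 5 barcodes with enough class II UMIs lacked a UMI of an immune gene. H2-Aa was detected in 98.1% of the cells and in 1.09% of the other barcodes past the filter, and H2-Eb1 in 97.4% and 1.61%. Cd74 was detected in 100% and 3.09%, and H2-Ab1 in 98.9% and 10.1%. The cells held a median of 6282.5 UMIs and 2388 genes, while the median of all barcodes past the filter ranged from 1754 to 19254 UMIs among the mice. Within the class II UMIs, Cd74 took 48.7% to 56.9% among the 9 mice, H2-Aa 16.3% to 21.5%, H2-Ab1 12.3% to 15.4% and H2-Eb1 13.05% to 17.0%.

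Most of the cells had markers of macrophages. Of the 728 cells, 706 (97.0%) also met a macrophage gate, a UMI in at least 3 of C1qa, C1qb, C1qc, Csf1r, Adgre1 and Fcgr1 with at least 0.2% of the UMIs from these 6 genes. C1qb was also among the genes that chose the cells, and without it, by the other 5 genes, 687 (94.4%) met the gate, a count added after the data had been seen. C1qa, a complement gene of tissue macrophages, was detected in 97.7% of the cells against 1.85% of the barcodes in neither macrophage group. Csf1r, the receptor for the macrophage growth factor, was detected in 91.5% against 2.07%, the chemokine receptor gene Cx3cr1 in 90.7% against 11.7%, and Mrc1, a mannose receptor gene, in 82.3% against 5.08%. Many genes that define other immune cells were at or near 0, while several genes that macrophages share with them were not. No UMI of the T cell gene Cd3g, the natural killer genes Nkg7 and Ncr1, the lymphoid regulator Gata3, the neutrophil genes S100a8 and S100a9, the monocyte gene Chil3 or the vessel-associated macrophage gene Lyve1 was found in any of the 728 cells, which allows each a share of cells with a UMI of up to 0.412%. Ly6c2, a marker of classical monocytes, was detected in 0.14% of the cells. The dendritic cell genes Flt3, Xcr1 and Clec9a were detected in 2.47%, 0.41% and 0.41%, and the B cell gene Cd79a in 1.92%. Of the same lists, however, the monocyte genes Ccr2, S100a4 and Itgam were detected in 57.8%, 56.5% and 27.5% of the cells, Mgl2 of the type 2 dendritic cell list in 74.2%, and Ighm and Cd79b of the B cell list in 72.5% and 23.5%. The summed B cell list was at 234 to 549.8 CPM (UMIs scaled to the same total in each mouse) in the class II high cells, at 138 to 363 CPM in macrophages that met the same gate and had less class II, and at 13.04 to 111 CPM in barcodes with 1 to 100 UMIs. The markers thus bear out the label of immune cells and place nearly all of them among macrophages. All intervals and upper limits given here cover counting error only.

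**Figure D1:**
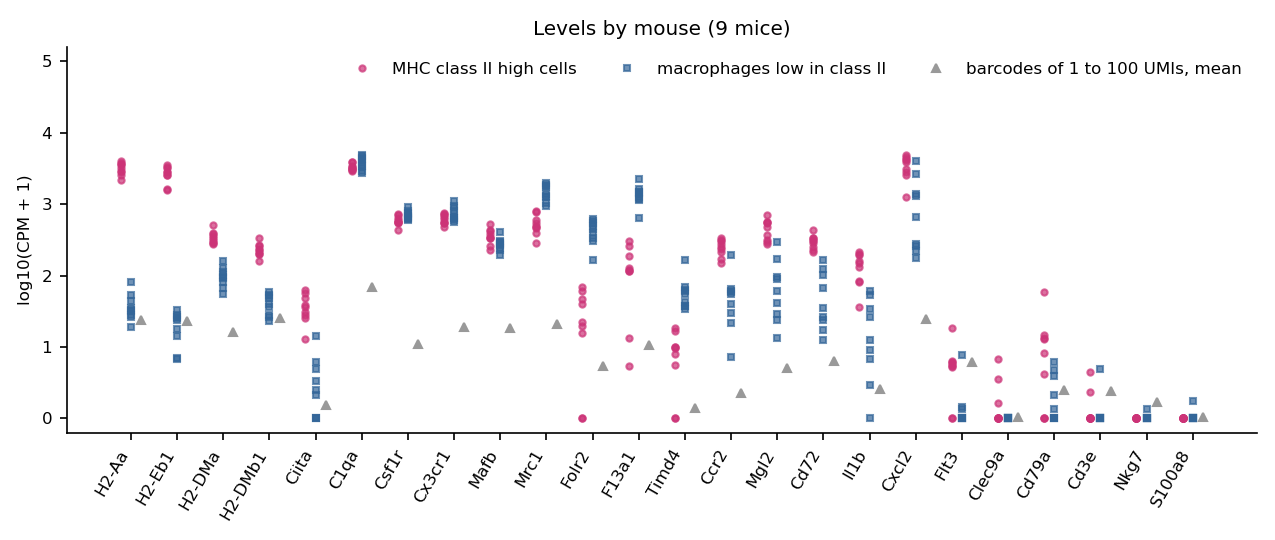
Levels of 24 genes as log10(CPM + 1), where CPM is a gene's UMIs after every cell group of every mouse is brought to the same UMI total. Each circle is the MHC class II high cells of 1 mouse, each square the macrophages low in class II of 1 mouse, and each triangle the mean over the 9 libraries of barcodes with 1 to 100 UMIs. C1qa, Csf1r and Cx3cr1 lie at similar levels in both cell groups. C1qa and Csf1r are genes of the macrophage gate, which chose the low macrophages and which nearly all MHC class II high cells met. Folr2 and F13a1 lie lower in the MHC class II high cells of every mouse, and Nkg7 and S100a8 lie at 0 in them.

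The 22 cells outside the macrophage gate were a mixture. Flt3, the receptor of dendritic cell precursors, was detected in 10 of the 22 and in 8 of the other 706, Cd209a, a marker of type 2 dendritic cells, in 4 and 0, and Ccr7, the receptor that directs dendritic cells to lymph nodes, in 4 and 0. The B cell genes Cd79a and Ms4a1 were detected in 8 and 6 of the 22, and in 6 and 3 of the 706. Clustering of the 728 cells on their own set 13 of the 22 apart, and that cluster was left without a name because it held both Flt3 and Cd79a among its leading genes. C1qa was detected in 6 of the 22 and in 705 of the 706. No barcode was shared between libraries among the 728 cells, although 5 of their barcodes were also past the filter in another library.

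The number of MHC class II high cells differed widely among mice. The control mice held 47, 13, 49 and 61 of these cells, the NELF-B cKO mice 74 and 153, and the TDP-43 cKO mice 171, 67 and 93. As a share of the barcodes past the filter, they were 0.616%, 0.154%, 0.956% and 1.25% in the control mice, 1.31% and 5.13% with NELF-B cKO, and 4.33%, 2.22% and 2.69% with TDP-43 cKO. The exact 95% binomial intervals of the shares reached from 0.0819% to 0.263% for the lowest share, in control replicate 2, and from 4.37% to 5.98% for the highest, in NELF-B cKO replicate 2. Every cKO mouse was above every control mouse, by a narrow margin for NELF-B cKO replicate 1. The mean share was 0.744% ± 0.471 (SD, n = 4) in the control mice and 3.22% ± 2.70 (SD, n = 2) with NELF-B cKO, a difference of 2.48 percentage points that did not pass an exact two-sided permutation test (p = 0.133, the smallest that 4 mice against 2 allow). In the TDP-43 cKO mice the mean was 3.08% ± 1.11 (SD, n = 3), a difference of 2.34 percentage points that did not pass the same exact test (p = 0.0571, the smallest that 4 against 3 allow). With NELF-B cKO replicate 2 left out, the NELF-B difference was 0.569 percentage points, and with NELF-B cKO replicate 1 left out it was 4.39.

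The share of a cell type depends on all other cells in the library, and the germ cells, which make up most of the testis, are the cells the deletion acts in. The barcodes past the filter numbered 4879 to 8457 in the control mice, 5638 and 2982 with NELF-B cKO, and 3023 to 3947 with TDP-43 cKO. Relative to Sertoli cells, the somatic cells that support the germ cells, the control mice had 26.3, 4.15, 27.4 and 21.5 MHC class II high cells per 100 barcodes with Sertoli markers, the NELF-B cKO mice 36.1 and 39.8, and the TDP-43 cKO mice 28.4, 21.3 and 27.5. By this measure both NELF-B cKO mice stayed above the control mice (exact two-sided permutation test, p = 0.133), while the TDP-43 cKO mice overlapped with them (exact p = 0.4). Macrophages low in class II were counted in the same way, as the 613 barcodes past the filter that met the macrophage gate and did not qualify as MHC class II high. They numbered 71, 78, 24 and 13 in the control mice, 83 and 141 with NELF-B cKO, and 146, 16 and 41 with TDP-43 cKO. Of both groups together, the MHC class II high cells were 39.8%, 14.3%, 67.1% and 82.4% in the control mice, so the balance between the groups spread more among the control mice than between genotypes. It was 47.1% and 52.0% with NELF-B cKO (exact p = 1) and 53.9%, 80.7% and 69.4% with TDP-43 cKO (exact p = 0.4). In barcodes thinned to 2000 UMIs, the mean share was 0.976% in the control mice, 3.34% for NELF-B cKO and 2.88% for TDP-43 cKO, and every cKO mouse was still above every control mouse. The part that the loss of germ cells or the handling of the tissue has in the shares was not tested.

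**Figure D2:**
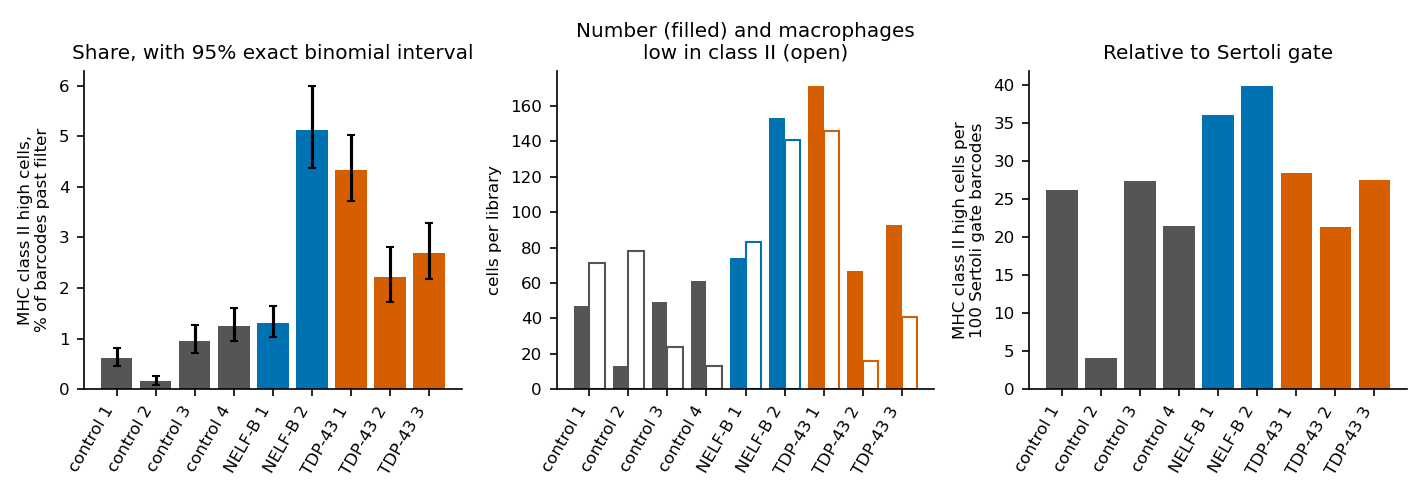
Left, MHC class II high cells as a percent of the barcodes past the filter, 1 bar per mouse with the exact 95% binomial interval. Middle, the number of MHC class II high cells (filled bars) and of macrophages low in class II (open bars) per library. Right, MHC class II high cells per 100 barcodes with Sertoli markers. Every cKO mouse lies above the control mice at the left, whereas the TDP-43 cKO mice overlap with the control mice at the right.

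To see what sets these cells apart from the other macrophages of the same testis, the UMIs of the MHC class II high cells and those of the macrophages low in class II were added up in each mouse and compared within the mouse by edgeR's quasi-likelihood test. The class II high cells had the transcripts of the class II loading machinery, of inflammatory chemokines and of Ccr2, and less of the transcripts of resident interstitial macrophages. Of 9566 genes tested, 976 were called, which is 10.2% of the genes (adjusted p under 0.05, at least 1 log2 unit apart), 413 of them higher (4.32%) and 563 lower (5.89%) in the class II high cells. In all 9 mice, 177 of the higher and 310 of the lower genes had the same direction. The 8 genes that chose the class II high cells and the genes of the macrophage gate were left out of the test. Without mouse as a block, 478 genes were called.

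The genes of the class II pathway that the choice of cells did not use were higher with the class II genes. H2-DMa was at 279, 339.5 and 504 CPM, that is UMIs scaled to a common total per mouse (lowest, median and highest of the 9 mice), in the class II high cells and at 53.8, 94.966 and 159.9 CPM in the low macrophages. The ranges did not overlap, and the log2 fold change was 2.05 ± 0.14 (SE; edgeR, adjusted p = 4.62e-09). H2-DMb1 was at 160.1, 229 and 333 CPM against 21.9, 38.5 and 58.4 CPM, with a log2 fold change of 2.79 ± 0.15 (SE; edgeR, adjusted p = 3.36e-10). Ciita was at 12.1, 35.4 and 61.9 CPM against 0, 1.48 and 13.5 CPM, which leaves 1 control mouse with a level in the low macrophages above the lowest level in the class II high cells. Its log2 fold change was 4.59 ± 0.42 (SE; edgeR, adjusted p = 1.89e-07). These 3 were all the genes of the class II list that could be tested beyond the choice. All 3 were called higher, against 4.32% of all genes tested. H2-Oa and H2-Ob, which encode the H2-O molecule that holds H2-DM in check, stayed at or under 10.0 and 17.7 CPM in every mouse and were too low to test. In the genome, H2-Aa (34282744 to 34287823), H2-Ab1 (34257689 to 34269419), H2-Eb1 (34305867 to 34316674), H2-DMa (34119541 to 34139101) and H2-DMb1 (34153072 to 34160230) lie together on chromosome 17 of GRCm38, while Ciita lies on chromosome 16 from 10480059 to 10528418.

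Single other genes of antigen presentation were called, where 10.2% of all genes tested were called. Of 9 tested genes of class II processing and costimulation, 1 was called higher and 1 lower. Counts this small do not set these lists apart from all genes tested. Cd83, a surface protein of mature antigen-presenting cells, was at 103 to 554 CPM among the mice against 37.5 to 219.6 CPM, with a log2 fold change of 2.05. Lgmn, a lysosomal protease that trims antigens, was lower at 357 to 785 CPM against 831 to 1814 CPM, with a log2 fold change of -1.16, and its ranges did not overlap. Ctss, the cathepsin that cuts the invariant chain, and the costimulatory gene Cd86 had log2 fold changes of 0.53 and 0.42, under the size required. Of 12 genes of MHC class I and its peptide supply, 0 were called, with a median log2 fold change of 0.38 over the list and of 0.00 over all genes tested.

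The program of interstitial macrophages was lower throughout the list. All 9 tested genes of that list were called lower, with a median log2 fold change of -2.61, where 5.89% of all genes tested were called lower. Folr2, a folate receptor gene of resident macrophages, was at 0, 21.4 and 68.4 CPM in the class II high cells and at 163, 451 and 613 CPM in the low macrophages, with a log2 fold change of -3.65 ± 0.25 (SE; edgeR, adjusted p = 6.27e-09). F13a1, which encodes a subunit of a clotting factor, was at 4.42, 119 and 306 CPM against 644, 1419 and 2283 CPM, with a log2 fold change of -3.24, and Cbr2, a carbonyl reductase gene, at 6.63, 108 and 240.4 CPM against 529.7, 901 and 1345 CPM, with a log2 fold change of -2.85. For these 3 genes every mouse was lower in the class II high cells and the ranges did not overlap. Timd4, a receptor for dying cells, was at 0 to 17.6 CPM against 32.6 to 163 CPM, and Mrc1 at 287 to 809.7 CPM against 935 to 1983 CPM, with a log2 fold change of -1.32 for Mrc1, while it was still detected in most of the class II high cells. The scavenger receptor genes Stab1 and Cd163, the chemokine gene Pf4 and the regulator Maf had log2 fold changes of -2.24, -2.61, -1.35 and -1.61. Among general macrophage genes, 3 of 7 tested were called lower, namely the receptor genes Mertk (-1.80) and Trem2 (-1.14), which take part in the clearance of dying cells and lipid, and Ms4a7 (-2.16, log2 fold changes). Cx3cr1, with 476 to 754 CPM against 561 to 1095 CPM, had a log2 fold change of -0.11 and was not called (edgeR, adjusted p = 0.516).

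Ccr2 and most tested cytokine, chemokine and immediate early genes were higher. Ccr2, the chemokine receptor that lets monocytes leave the bone marrow, was at 151, 252 and 335 CPM in the class II high cells and 6.25, 53.8 and 194 CPM in the low macrophages, was higher in 9 of 9 mice and had a log2 fold change of 2.62 ± 0.25 (SE; edgeR, adjusted p = 2.13e-07). It was the only 1 of 4 tested monocyte genes to be called, and the median log2 fold change of the 4 was -0.11, with S100a4 at 0.04 and Itgam at -0.36. Of 12 cytokine and chemokine genes, 8 were called higher and 1 lower. Il1b, which encodes the cytokine interleukin 1 beta, was at 35.3, 151 and 212 CPM against 0, 11.6 and 60.5 CPM, with a log2 fold change of 3.32 ± 0.34 (SE; edgeR, adjusted p = 4.85e-07), and it was detected in 185 of the 728 cells. The neutrophil attractant gene Cxcl2 was at 1269.5 to 4920.5 CPM against 173 to 4045 CPM, with a log2 fold change of 2.39. Ccl3 and Ccl4, chemokine genes that attract monocytes and T cells, had log2 fold changes of 2.10 and 2.46, and Ccl24, an attractant of eosinophils found in resident macrophages, was lower at -2.29. Of 12 immediate early and heat shock genes, 8 were called higher, among them Atf3 (1.90), Junb (1.14), Fos (1.02) and Hspa1a (1.62, log2 fold changes). These genes respond to cell dissociation as well as to signals in the tissue, and the part of dissociation was not tested. None of 10 interferon response genes was called, where 10.2% of all genes tested were called, and 7 of the 10 had a positive log2 fold change.

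Single genes of the dendritic cell lists were called higher. Of 4 tested genes of type 2 dendritic cells, Mgl2 and Tnip3 were called higher and Clec10a lower. Mgl2, a lectin gene, was at 276, 476 and 714 CPM against 12.5, 60.5 and 298 CPM and had a log2 fold change of 2.97 ± 0.34 (SE; edgeR, adjusted p = 1.41e-06). Clec10a, its close paralog, was at 0 to 22.6 CPM against 13.5 to 63.1 CPM, with a log2 fold change of -1.23. Of 6 tested genes of type 1 dendritic cells, Batf3, Cadm1 and Naaa were called higher, Batf3 at 30.1 to 69.2 CPM against 0 to 28.2 CPM with a log2 fold change of 2.33. The genes by which dendritic cells are usually told from macrophages, Flt3, Zbtb46 and Itgax, were detected in 2.47%, 3.297% and 2.06% of the class II high cells and in 0.489%, 11.9% and 0.979% of the low macrophages, and were too low to test. Runx3, a transcription factor gene, was 1 of 10 myeloid regulators and was called higher, with a log2 fold change of 2.45. Fcgr4, an Fc receptor gene, was 1 of 9 phagocytic receptor genes and was called higher, with 2.66. No other gene of these lists was called, and 1 of 10 and 1 of 9 lie near the 10.2% called over all genes tested.

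The genes with the largest differences in each direction, all with at least 50 CPM in the higher cell group and the same direction in every mouse, are named next. On the higher side, beside Il1b, Mgl2 and H2-DMb1, stood Plbd1 (3.22), Scimp (3.09), Sh2d1b1 (3.05), Bcl2a1d (2.99), Cd72 (2.91), Rgs1 (2.91), Cytip (2.81), Ildr1 (2.79) and Neurl3 (2.74, log2 fold changes). Scimp encodes an adaptor of class II signalling in antigen-presenting cells, Cd72 an inhibitory receptor, Rgs1 a brake on chemokine receptors, Cytip a regulator of adhesion, and Bcl2a1d a survival protein with near-identical copies, so that its reads may be split among them. Plbd1 was at 86.2 to 183 CPM against 6.25 to 37.1 CPM, and Cd72 at 211 to 431 CPM against 11.5 to 166 CPM. On the lower side, beside Folr2, F13a1 and Cbr2, stood Colec12 (-4.09), Cd209f (-3.99), Pdgfc (-3.40), Slc40a1 (-3.40), Vsig4 (-2.90), Fgfr1 (-2.88), Syngr1 (-2.87), Ctsd (-2.86) and Tnfrsf21 (-2.79). Colec12 and Cd209f encode lectin-type scavenger receptors, Vsig4 a complement receptor of resident macrophages and Slc40a1 the iron exporter ferroportin. Ctsd, the gene of the lysosomal protease cathepsin D, was at 36.9, 94.8 and 277 CPM against 315, 1059 and 1247 CPM without overlap. Among 11 tested genes of lysosomes and lipid handling, Ctsd, Ctsb (-1.52) and Apoe (-1.60) were called lower and the tetraspanin gene Cd9 (1.81) higher. Apoe encodes the lipid carrier apolipoprotein E. Over all genes tested, 5.89% were called lower and 4.32% higher.

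**Figure D3:**
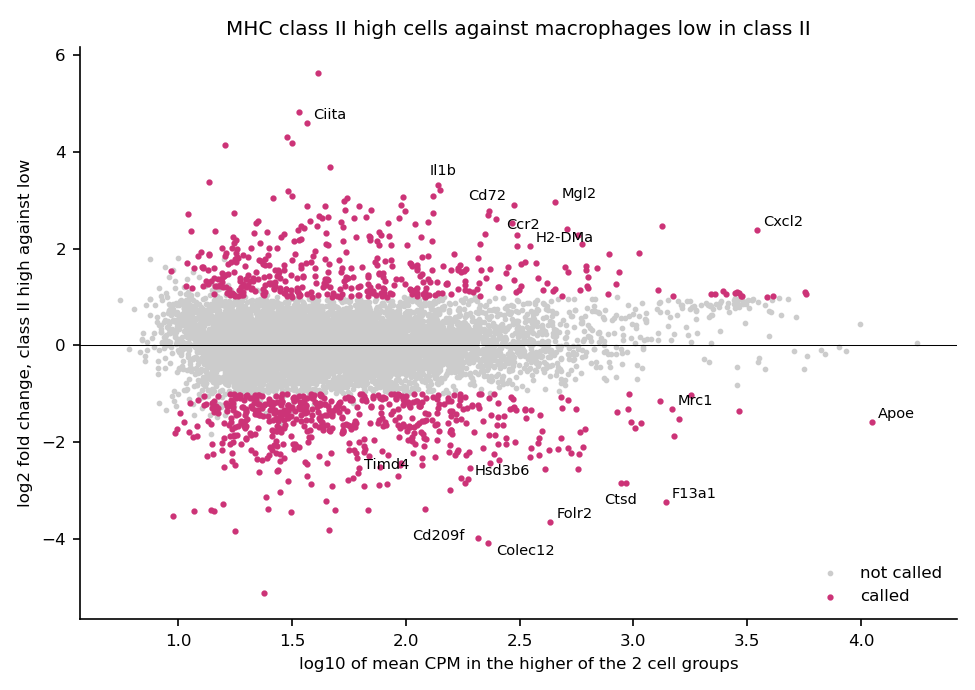
Each point is 1 of the genes tested, with the log10 of its mean CPM in the higher of the cell groups on the horizontal axis and the log2 fold change of MHC class II high cells against macrophages low in class II on the vertical axis. The 976 called genes are in colour. Ciita, Il1b, Mgl2 and Ccr2 lie above and Folr2, F13a1, Ctsd and Colec12 below.

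RNA of neighbouring cell types differed as well, where 5.89% of all genes tested were called lower and 4.32% higher. All 8 tested Leydig cell genes were called lower in the class II high cells, such as the steroid enzyme genes Hsd3b6 (-2.77) and Cyp17a1 (-2.01), and the summed Leydig list was at 12.3 to 837 CPM in them, 93.4 to 4306 CPM in the low macrophages and 108 to 2216 CPM in barcodes with 1 to 100 UMIs, which hold RNA free in the suspension. Of 5 tested genes of the interstitial stroma 3 were called lower, namely Dcn, Pdgfra and Igf1. Igf1 was also a leading gene of a cluster of class II high cells led by F13a1 and Folr2. It was at 350 CPM there and at 26.1 CPM in the other class II high cells, so it is not a marker of stroma alone here. Both tested genes of peritubular myoid cells, the contractile cells of the tubule wall, were called higher. Acta2, smooth muscle actin, was at 67.8, 98.5 and 178 CPM in the class II high cells, 5.76, 23.1 and 128 CPM in the low macrophages and 6.94 to 63.4 CPM in the free RNA, with a log2 fold change of 2.07 ± 0.30 (SE; edgeR, adjusted p = 2.51e-05). It was detected in 273 of the 728 cells, with at most 10 UMIs in any of them, so it did not come from a few cells. The summed myoid list was at 98.5 to 256 CPM in the class II high cells and at 18.8 to 141 CPM in the low macrophages. Germ cell transcripts leaned the other way from the Leydig list. All 12 tested germ cell genes had a positive log2 fold change, with a median of 0.61, and Stra8, a gene of the entry into meiosis, was called higher at 1.99. The share of free RNA, estimated from the germ cell list, was 11.0% to 33.9% of the UMIs of the class II high cells and 8.26% to 26.6% of those of the low macrophages, and it was higher in the class II high cells of 8 of 9 mice, with TDP-43 cKO replicate 3 as the exception. Whether the UMIs of these other cell types come from the macrophages themselves, from attached cells or from free RNA was not tested.

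Within the class II high cells the same genes changed in steps with the class II share, which is given as a description because the share is also what chose the cells. The cells were divided into 224 with 0.2% to 1% of class II UMIs, 176 with 1% to 2%, 214 with 2% to 4% and 114 with 4% or more, the last from 7 mice and the others from all 9, and set beside the 613 low macrophages. Across these 5 groups, from low to high, Folr2 was at 386, 76.3, 18.1, 8.0002 and 11.2 CPM and F13a1 at 1432, 348, 131, 48.7 and 16.8 CPM. Mrc1 was at 1619, 736, 611, 451 and 300.3 CPM. These resident genes were lower in each group up to 2% to 4% than in the one before, and Folr2 was not lower again in the last. In the same order Ccr2 was at 48.8, 152, 207, 340.4 and 390.1 CPM, Mgl2 at 62.4, 302, 413, 528 and 793 CPM, H2-DMa at 109, 226, 338, 515 and 744 CPM and Ciita at 1.76, 10.8, 37.0, 64.7 and 107 CPM, each higher from group to group. Csf1r, a gene of the macrophage gate, stayed between 587 and 759 CPM in all 5 groups. The proliferation gene Mki67 was at 178, 255, 219, 93.8 and 12.6 CPM, lowest in the cells with the most class II. All these levels are sums over the cells of all mice, so mice with more UMIs weigh more. NELF-B cKO replicate 2 and TDP-43 cKO replicate 1 held 1593179 and 1495389 UMIs in class II high cells, and the other mice at most 580192. The steps were not examined within single mice. A UMI in at least 2 of the division genes Mki67, Top2a, Birc5 and Ube2c was found in 24.7% of the class II high cells, with 9.46% to 42.6% among the mice, in 33.3% of the low macrophages and in 42.2% of all other barcodes past the filter, germ cells included. These shares were not thinned to a common depth, and the medians were 6282.5 and 10179 UMIs in the class II high cells and the low macrophages.

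**Figure D4:**
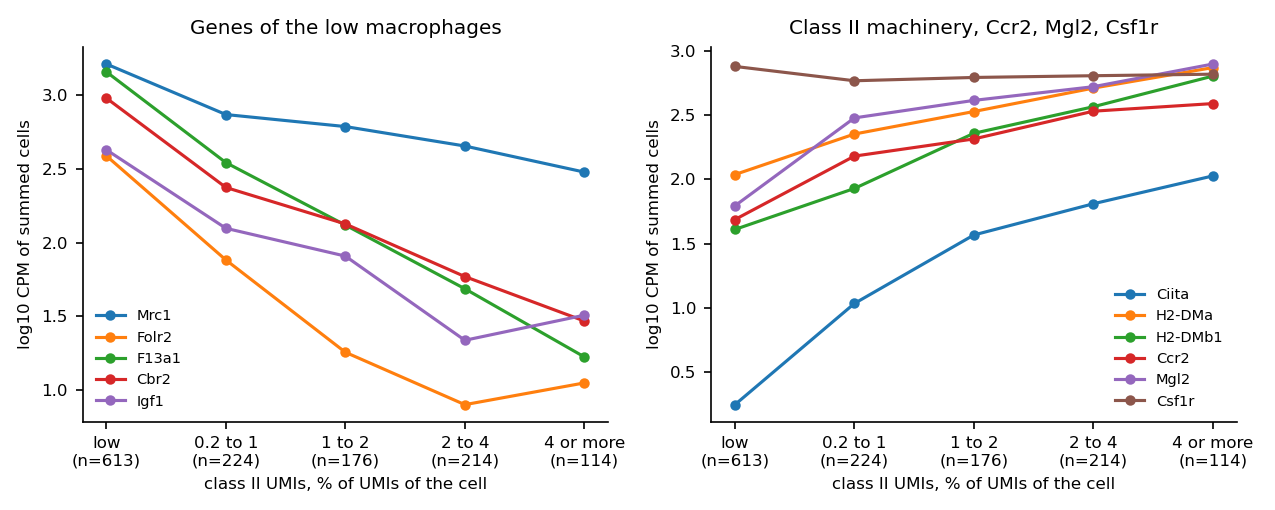
The log10 CPM of the summed cells on the vertical axis against groups of rising class II share on the horizontal axis, with the number of cells per group. Left, 5 genes of the low macrophages are lower in each group up to 2% to 4% of class II UMIs than in the one before. Folr2 and Igf1 are not lower again in the last group. Right, Ciita, H2-DMa, H2-DMb1, Ccr2 and Mgl2 are higher with a higher class II share while Csf1r, a gene of the macrophage gate, stays level.

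The effect of each deletion on the class II high cells was examined by the sum over these cells in each mouse, with edgeR over all 9 mice. The targeted genes were examined first. Nelfb was at 13.7, 49.3, 12.98 and 32.7 CPM in the control mice, 5.89 and 9.42 CPM with NELF-B cKO and 20.1, 30.9 and 19.0 CPM with TDP-43 cKO, so both NELF-B cKO mice lay below all other mice. These levels rest on 3, 4, 3 and 13 UMIs, 2 and 15 UMIs, and 30, 14 and 11 UMIs in the same order, and the difference with NELF-B cKO of -1.51 ± 0.64 on the log2 scale was not called (SE; edgeR, adjusted p = 0.613). Tardbp was at 27.4, 86.2, 64.9 and 103 CPM in the control mice and 30.1, 66.3 and 51.7 CPM with TDP-43 cKO, and its log2 fold change of -0.50 ± 0.41 was not called (SE; edgeR, adjusted p = 0.582). Tardbp UMIs read at the 3′ end do not show whether exon 3, the floxed exon, is present.

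The share of free RNA in these cells differed between the genotypes. Transcripts of the germ cell list, which macrophages are not known to make, were at 1010 to 1093 CPM in the class II high cells of the control mice, at 863 and 244 CPM in those with NELF-B cKO and at 233, 672 and 372 CPM in those with TDP-43 cKO. Set against their level in barcodes with 1 to 100 UMIs, this puts the free RNA at 33.9%, 28.8%, 29.2% and 29.6% of the UMIs of the class II high cells in the control mice, 27.9% and 19.1% with NELF-B cKO and 16.6%, 18.9% and 11.0% with TDP-43 cKO. The estimate takes every germ cell UMI in these cells as free RNA. In this share all cKO mice were below all control mice.

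In the NELF-B cKO mice, 0 of 7538 genes were called by edgeR (percent called 0), with 318 higher and 274 lower at an unadjusted p under 0.05, and DESeq2 called 0 as well. None of the class II loading genes passed. H2-DMa was at 297, 283, 359 and 279 CPM in the control mice and 395 and 504 CPM with NELF-B cKO, without overlap, with a log2 fold change of 0.59 ± 0.20 (SE; edgeR, adjusted p = 0.599). Ciita was at 27.4, 24.6, 30.3 and 37.7 CPM and 61.9 and 55.9 CPM, with 0.90 ± 0.44 (SE; edgeR, adjusted p = 0.638). Among the 5 genes with the smallest p, none of which was called, were Apoe and Ccl8. Apoe was at 3247, 1441, 2492 and 2560.1 CPM in the control mice and 5915 and 8592 CPM with NELF-B cKO, with a log2 fold change of 1.59 ± 0.29 (SE; edgeR, adjusted p = 0.218), and the NELF-B cKO mice lay above all other mice. The makeup of the cells differed as well. In the clustering of the 728 cells, 1 cluster of 83 cells, led by F13a1, Folr2, Cbr2 and Apoe among others, held 6.38%, 0%, 4.08% and 4.92% of the class II high cells of the control mice, 13.5% and 28.1% with NELF-B cKO and 7.02%, 0% and 10.8% with TDP-43 cKO. A cluster with Sycp3 and other germ cell genes as leading genes held 10.2% to 15.4% in the control mice and 52.7% and 8.497% for NELF-B cKO. A cluster with Uchl1 and Cst12 as leading genes held 23.1% to 48.9% and 9.46% and 7.19%. The cluster of dividing cells, led by Mki67 and Top2a among others, held 6.12% to 26.2% and 4.05% and 11.1%. Leading genes were ranked by summed UMIs. Sycp3 was detected in 30.8% of the cells of its cluster and in 25.2% of the other class II high cells. Uchl1 was detected in 10.2% and 9.46% and Cst12 in 41.4% and 40.6%, so these genes do not mark the cells of their clusters. Apoe was at 16713 CPM in the F13a1 cluster and at 2392 CPM in the other class II high cells, and whether the levels differ within the clusters was not tested. Ccl8, a chemokine gene, was at 0, 0, 4.33 and 25.1 CPM in the control mice and 303 and 116 CPM with NELF-B cKO (log2 fold change 4.16, edgeR, adjusted p = 0.218), but all 103 UMIs of NELF-B cKO replicate 1 lay in 1 cell, and in replicate 2 the 185 UMIs lay in 16 cells. The other 3, Rtl4, Tshz2 and Cped1, were at higher levels in the free RNA (68.1, 112 and 28.9 CPM on average over the libraries) than in the class II high cells on average (26.1, 38.4 and 17.1 CPM). All 12 tested macrophage genes and all 7 tested interstitial macrophage genes had a positive log2 fold change, and 0 of them were called. The medians were 0.44 and 0.64 against 0.01 over all genes tested, of which 3805 of 7538 were positive. Free RNA was subtracted in an alternative added after the data had been seen. Fcgr1 and Folr2 then had log2 fold changes of -0.116 and -0.013, while C1qa, C1qc, Csf1r, Adgre1, F13a1 and Cbr2 stayed positive. The cluster led by F13a1 and Folr2 had its largest share in NELF-B cKO replicate 2, so these values hold for the mixture of cells and not for 1 class. Markers of other cell types moved with them, as 6 of 6 tested Leydig genes (median 5.11), 2 of 2 stroma genes (2.58) and 3 of 3 Sertoli genes (0.89, log2 fold changes) were positive and 0 were called. The summed Leydig list was at 12.3 to 42.7 CPM in the class II high cells of the control mice and at 156 to 837 CPM for NELF-B cKO, without overlap, and its level in barcodes with 1 to 100 UMIs was 108 to 194 CPM and 746 to 2185 CPM. In the TDP-43 cKO mice, 6 of 6 tested Leydig genes (median 3.82) and 3 of 3 Sertoli genes (0.92) were positive as well. Of 2 tested stroma genes 1 was positive there (median 0.69, log2 fold changes), and 0 of all these genes were called. The part of these cell types in the values was not tested. All 10 cell cycle genes had a negative log2 fold change with NELF-B cKO, with a median of -0.61, and 0 were called.

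In the TDP-43 cKO mice, 216 of 7538 genes were called, which is 2.87%, 9 of them higher (0.119%) and 207 lower (2.75%). Of the 207 lower genes, 204 were at a higher level in the free RNA than in the class II high cells, with a median ratio of 4.72 over the 207, against 1.13 over all genes tested. The lower genes with the largest changes and no overlap were germ cell transcripts of this kind. Fndc11 was at 64.0, 12.3, 38.9 and 10.0 CPM in the control mice, from 14, 1, 9 and 4 UMIs, and at 0 in all 3 TDP-43 cKO mice. In the free RNA it was at 117 CPM on average over the libraries, with a range of 1.76 to 312 CPM. Spata45, Tex33, Lrrc6 and Ube2d2b had log2 fold changes of -6.38, -5.69, -5.36 and -5.09, from 70, 43, 45 and 76 UMIs over all class II high cells. In the free RNA they ranged among the libraries from 5.64 to 450 CPM, 5.64 to 314 CPM, 1.41 to 97.7 CPM and 4.23 to 210 CPM. The part that these differences between the libraries have in the values was not tested. Dmrtb1 and Spaca1 of the germ cell list had log2 fold changes of -4.10 and -3.89. The control mice had the larger share of free RNA in these cells, and with the free RNA subtracted, an alternative added after the data had been seen, 2 of the 216 genes were called again. Of the 216, 172 were too low after the subtraction to be tested, among them Fndc11, Spata45, Tex33, Lrrc6 and Ube2d2b, and 37 of the 44 tested again kept their direction. S100a4 had a log2 fold change of 0.71 and Ifit3 of -2.09 after the subtraction, without a call (edgeR, adjusted p = 0.149 and 0.0553).

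The 3 lower genes that were not abundant in the free RNA were all from the interferon response list. Of that list, 3 of 9 tested genes were called lower, against 2.75% of all genes tested. The median log2 fold change was -0.58 over the list and 0.07 over all genes tested. Irf7, the regulator of type I interferon genes, was at 105, 61.6, 125 and 80.4 CPM in the control mice, 41.2 and 50.2 CPM with NELF-B cKO and 17.4, 42.0 and 25.9 CPM with TDP-43 cKO. All TDP-43 cKO mice were below all control mice, and the log2 fold change was -1.77 ± 0.35 (SE; edgeR, adjusted p = 0.0412). Isg15, a ubiquitin-like protein induced by interferon, was at 109.8, 49.3, 82.2 and 118 CPM, 64.8 and 92.3 CPM and 30.8, 39.8 and 34.5 CPM in the same order, without overlap between the control and TDP-43 cKO mice, and its log2 fold change was -1.39 ± 0.30 (SE; edgeR, adjusted p = 0.0412). Ifit3, an interferon-induced antiviral protein gene, was at 86.9, 24.6, 51.9 and 55.3 CPM, 56.0 and 52.1 CPM and 12.0, 13.3 and 24.1 CPM, with -1.79 ± 0.38 (SE; edgeR, adjusted p = 0.0412), and the highest TDP-43 cKO mouse lay just below the lowest control mouse. The UMIs behind these values were few, with 5 to 32 of Irf7 per control mouse and 15 to 26 per TDP-43 cKO mouse. Irf7 was detected in 30.6% to 36.2% of a control mouse's class II high cells and in 9.36% to 12.9% of a TDP-43 cKO mouse's. The median UMIs per cell were 4275 to 6372 and 5675 to 7297 in the same order. Of the other tested genes of the list, Ifit2 (-1.32), Bst2 (-0.58), Oasl2 (-0.55) and Ifi27l2a (-0.42) had negative and Cxcl10 (0.49) a positive log2 fold change, and none of these was called. In the macrophages low in class II, Irf7 was at 78.5, 54.9, 68.3 and 20.2 CPM in the control mice and 21.1, 12.5 and 21.2 CPM with TDP-43 cKO, which overlap. Isg15 in the same macrophages was at 65.8, 68.3, 36.8 and 53.8 CPM in the control mice and 27.7, 31.3 and 32.7 CPM with TDP-43 cKO, and Ifit3 at 40.3, 46.0, 57.8 and 33.6 CPM and 23.3, 18.8 and 13.5 CPM, both without overlap. The summed interferon response list was at 1803 to 2259 CPM in the low macrophages of the control mice and at 1057 to 1359 CPM with TDP-43 cKO, also without overlap, while in the class II high cells it was at 1441 to 2332 CPM and 1179 to 1567 CPM, which overlap. The genotypes were not tested in the low macrophages. The difference between the TDP-43 cKO and NELF-B cKO mice was not tested.

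These calls lay close to the threshold, with adjusted p-values of 0.0412 to 0.05 (edgeR) over the 216 genes, and leaving out control replicate 1, 2 or 3 or any 1 TDP-43 cKO mouse left 0 genes called. Without control replicate 4, 110 genes were called. With the free RNA subtracted, 21 genes were called, of which the 3 lower ones were Irf7, Isg15 and Rnf213, a ubiquitin ligase gene, and the 18 higher ones were all at higher levels in the free RNA than in the cells. Rnf213 was at 137, 259, 221 and 183 CPM in the control mice and 109, 72.9 and 96.5 CPM with TDP-43 cKO without overlap, with a log2 fold change of -0.96 before the subtraction (edgeR, adjusted p = 0.0529).

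Of the 9 genes called higher with TDP-43 cKO, S100a4 belonged to the lists. S100a4, a calcium-binding protein gene of monocytes and motile cells, was at 242, 271, 268 and 226 CPM in the control mice, 359 and 344 CPM with NELF-B cKO and 531, 413 and 446 CPM with TDP-43 cKO. The TDP-43 cKO mice lay above all others, with a log2 fold change of 0.98 ± 0.17 against the control mice (SE; edgeR, adjusted p = 0.0412), and the mean level in free RNA was 8.55 CPM. Among the higher genes with the largest changes and no overlap were Tshz2 (3.91), Dlgap1 (2.93), Cped1 (2.68) and Zswim4 (1.46, log2 fold changes). Tshz2, Dlgap1 and Cped1 were at 112, 116 and 28.9 CPM in the free RNA on average. Few cells carried Tshz2 and Dlgap1, since in TDP-43 cKO replicate 1 the 5 cells with the most UMIs held 89.3% of the 122 Tshz2 UMIs and 80.3% of the 142 Dlgap1 UMIs. None of the class II loading genes passed with TDP-43 cKO, with H2-DMa at 379.8, 316 and 339.5 CPM and a log2 fold change of 0.26 ± 0.18 (SE; edgeR, adjusted p = 0.504). With the free RNA subtracted, the log2 fold change of H2-DMa was 0.004. Of the 12 immediate early and heat shock genes, 11 had a positive log2 fold change, with a median of 0.38 over the list, and 0 were called. Over all genes tested, 4182 of 7538 were positive, with a median of 0.07. The part of the smaller free RNA share of the TDP-43 cKO mice in these values was not tested.

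**Figure D5:**
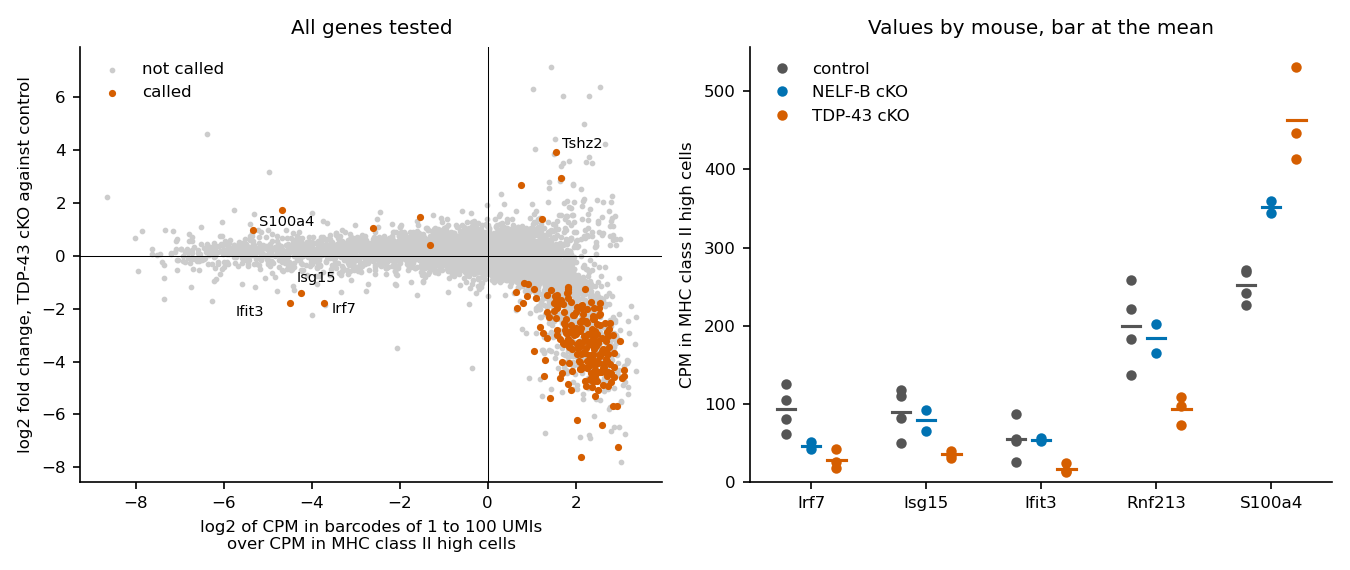
Left, the log2 fold change of TDP-43 cKO against control for each gene tested in MHC class II high cells, against the log2 ratio of its level in barcodes of 1 to 100 UMIs to its level in these cells. Most called genes, in colour, lie at the right below 0, at higher levels in the free RNA, while Irf7, Isg15, Ifit3 and S100a4 lie at the left. Right, CPM of 5 genes with 1 point per mouse and a bar at the mean of the group, with Irf7, Isg15, Ifit3 and Rnf213 lower and S100a4 higher with TDP-43 cKO than in the control mice.

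Some signals came from few cells. Cxcl9, an interferon gamma target gene, was at 292 CPM in NELF-B cKO replicate 2 and at 541 CPM in TDP-43 cKO replicate 3, and at 0 to 18.3 CPM in the other 7 mice. All 314 of its UMIs in TDP-43 cKO replicate 3 lay in 1 cell, and in NELF-B cKO replicate 2 the 465 UMIs lay in 9 cells, with 223 in 1 of them. Cyp17a1 had 504 UMIs in 21 cells of NELF-B cKO replicate 2, with 237 in 1 cell, and 264 UMIs in 12 cells of TDP-43 cKO replicate 1, with 220 in 1 cell.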

How the data were processed

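Whole testes of 9 mice gave 1 library each of 3′ single cell RNA-seq. The deposited matrices hold whole UMI counts, made by the authors with Cell Ranger (7.0.0 and 6.1.1 are listed in the submitters' processing notes, and the file headers name version 4) on mm10, without normalization and with all barcodes kept. The libraries held 119203347 to 159407373 UMIs.

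The counts of the cells compared were summed within each mouse, and the mouse was the unit. The genotype comparisons used all 9 mice in 1 fit of edgeR 4.0.16 (filterByExpr, TMM, glmQLFit and glmQLFTest) in R 4.3.3, with genes called at a Benjamini-Hochberg adjusted p under 0.05. The comparison with macrophages low in class II added mouse as a block and a difference of at least 1 log2 unit. Mice needed at least 10 cells. Shares were compared with exact two-sided permutation tests. DESeq2 1.42.0 was run as an alternative. Free RNA was read from barcodes with 1 to 100 UMIs. A barcode counted as having Sertoli markers with a UMI in at least 3 of 8 Sertoli genes that took at least 0.2% of its UMIs. Scanpy 1.11.5 was used for clustering (leidenalg 0.10.2, resolution 0.5) and for Scrublet. Genes whose free RNA level was 0.5 or more of their class II high cell level, such as Sycp3, were left out of the clustering. Scrublet marked 94 of the 45132 barcodes (0.208%) as doublets, too few to count as a working call, so doublets stay in. On simulated counts for the comparison with macrophages low in class II (9579 genes), the fit found 200 of 200 genes changed by 2 on the log2 scale, with 8 false calls. The changed genes were drawn from well-counted genes, the simulated mice shared the same mean per gene, and calls were made by adjusted p alone. It therefore does not show how well the real fit finds smaller changes or genes with few UMIs.

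The cells and the 27 gene lists were chosen with earlier results of these data known. Genes are named when they belong to these lists, when they are 1 of the 5 called genes per direction with the largest change and no overlap between groups (where fewer than 5 were called in all, also the 5 with the smallest p), when they are 1 of the 12 called genes per direction with the largest change against macrophages low in class II, with at least 50 CPM and the same direction in every mouse, or when they are targeted by the deletion. Ribosomal protein genes and unnamed gene models were counted but not named, and some named-gene results are not reported here. Genes with near-identical copies (Bcl2a1d, Sh2d1b1, H2-Eb1, H2-DMb1, Hspa1a, Hspa1b) are uncertain where reads could be split. Gene positions are from GENCODE M21 and promoters from RefSeq.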

Additional observations from a re-analysis of the deposited data

Results flagged for a closer look

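In 6 of 66 measures examined over the 4 control mice, 1 mouse lay far from the other 3. The gap of that mouse to its neighbour, as a share of the range of the group, was above Dixon's critical value at the 95% level, and chance gives about 1 in 20 such groups. The share of free RNA in the MHC class II high cells was 28.8% to 29.6% in 3 control mice and 33.9% in the remaining one, control replicate 1 (gap 0.843). Control replicate 2, which had 13 of these cells, was the distant mouse for Mgl2, at 714 CPM against 276 to 311 CPM in the other control mice (gap 0.921), and for Rgs1, at 345 CPM against 30.1 to 82.3 CPM (gap 0.834). Its Rgs1 level rests on 28 UMIs in 5 cells, 12 of them in 1 cell. For the other 3 measures, genes that are low in these cells, the gap is 1 by construction, since 1 control mouse had a few UMIs and the other 3 had 0, so these 3 say nothing against chance. Cd209f was at 34.6 CPM in control replicate 3, Vsig4 at 18.3 CPM in control replicate 1 and Syngr1 at 10.0 CPM in control replicate 4, from 8, 4 and 4 UMIs.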

How the results depend on the processing

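The higher share of MHC class II high cells in both cKO groups kept its direction at gates of 0.1% and 0.4%, in barcodes of at least 2000 UMIs, after thinning to 2000 UMIs and for the number per library and the number per 100 barcodes with Sertoli markers, both added after the data had been seen. Leaving out marked doublets removed only 9 of the 728 cells and tests little. With members and macrophages low in class II as the denominator, the NELF-B difference reversed to -1.33 percentage points. Leaving out 1 mouse at a time gave differences of 0.569 to 4.39 percentage points for NELF-B cKO and 1.71 to 2.77 for TDP-43 cKO. For NELF-B cKO, against 0 genes called, 3 were called without doublets, 223 without a filter on low counts, 1 with the replicate block, and 0 to 367 without 1 mouse (367 without NELF-B cKO replicate 1, 4 without NELF-B cKO replicate 2 and 8 without TDP-43 cKO replicate 1). For TDP-43 cKO, against 216 called, DESeq2 called 523, the test without a filter on low counts 1139, the replicate block 1, subtraction of free RNA (added after the data had been seen) 21, and the study's thresholds (adjusted p under 0.01 with at least 1 log2 unit) 0 by edgeR and 150 by DESeq2, all of the 150 lower. Leaving out 1 mouse gave 0 to 760, with 760 and 745 without NELF-B cKO replicates 1 and 2, 110 without control replicate 4 and 0 without any other mouse. The lone mouse left in the NELF-B group was then assumed to vary like the other groups. The cause of these shifts was not tested.

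Over all alternatives and edgeR or DESeq2, the adjusted p of Irf7 in TDP-43 cKO mice ran from 0.000112 to 0.199, of Isg15 from 0.00273 to 0.199, of Ifit3 from 0.00128 to 0.199 and of S100a4 from 0.000162 to 0.199, each with its direction kept. Against macrophages low in class II, 478 genes instead of 976 were called without mouse as a block, 466 of them the same genes, and 814 to 1066 without 1 mouse. Of the genes counted next, 0 changed direction. Other genes described for a genotype are not among them, such as Fcgr1 and Folr2 with NELF-B cKO. Their log2 fold changes were 0.027 and 0.227, and -0.116 and -0.013 with the free RNA subtracted. Over the alternatives, the 16 genes named for TDP-43 cKO kept their side of the threshold 130 times and lost the call 129 times, the 6 for NELF-B cKO kept theirs 82 times and gained a call 17 times, and the 87 for the comparison with low macrophages kept theirs 1407 times and lost the call 48 times. Deviations from the group means correlated between -0.44 and 0.24 over the pairs of mice with the same replicate number. Whether these numbers pair the mice remains undecided, since the deviations of the 2 NELF-B cKO mice are mirror images of each other and the labels give no pairs. The depth limits genes with few UMIs, such as Nelfb with 2 to 30 per mouse.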
